A study of Mus musculus with 6 samples.

Results

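Mitochondrial ribosomal proteins are the nuclear-encoded proteins of the ribosome that works inside mitochondria. In mouse their genes carry the symbols Mrpl for the large subunit and Mrps for the small subunit, each followed by a number. All probe sets annotated with exactly 1 gene symbol of this form were taken (a probe set being the oligonucleotides that together read 1 transcript). They gave 76 genes from 156 probe sets (47 Mrpl genes from 104 probe sets and 29 Mrps genes from 52) of 18193 genes from 34945 probe sets in all. The genes were compared between livers of 3 HLJ1-knockout (Dnajb4-/-) and 3 HLJ1-wildtype (Dnajb4+/+) mice, labelled as male C57BL/6 mice aged 6 to 8 weeks with 1 array per mouse and no further treatment. The knockout was made by gene targeting in embryonic stem cells and is not restricted by the labels to a cell type, and HLJ1 is a DnaJ-family heat shock protein. The question addressed was whether transcripts of the large and the small subunit differed between the genotypes.

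The mitochondrial ribosome translates the few messenger RNAs of the mitochondrial genome, which encode core subunits of the respiratory chain. Its RNA is made in the mitochondrion, whereas all its proteins are made in the cytosol and imported. Part of the proteins have counterparts in bacterial ribosomes, and the rest are found only in mitochondrial ribosomes. In hepatocytes, cells rich in mitochondria, this ribosome supplies subunits that are assembled with nuclear-encoded partners.

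Several features of the arrays moved with genotype, and each was shared by all 3 arrays of a genotype. The brightest of 3 Dnajb4 probe sets read 453 to 480 in Dnajb4-/- livers and 566 to 612 in Dnajb4+/+ livers. The other Dnajb4 probe sets differed by -0.05 and -0.04 on the log2 scale and did not pass (limma, adjusted p = 0.57 and 0.907). Averaged over its 3 probe sets, Dnajb4 differed by -0.14 and did not pass either (limma, adjusted p = 0.1445). A probe set of Xist, a transcript of female cells, read 36.1 to 40.5 in Dnajb4-/- livers and 807 to 910 in Dnajb4+/+ livers. The Dnajb4+/+ arrays therefore went against their male label, although Eif2s3y, a Y-linked gene, was read in both genotypes, at 939.8 to 1005 in Dnajb4-/- livers and 680 to 772 in Dnajb4+/+ livers. Whether an array held RNA of more than 1 mouse was not tested, and the SDs and p-values cover the spread between these arrays, which may be technical. Of 14 liver genes known to be higher in females, 12 passed the test as lower in Dnajb4-/- livers. Of 18 clock genes, 5 passed as higher and 11 as lower. Of 12 Kupffer cell markers, 11 passed as lower, with summed levels of 5256 to 5538 in Dnajb4-/- livers and 6886 to 7278 in Dnajb4+/+ livers. Of 10 endothelial markers, 5 passed as lower, with sums of 1748 to 1846 in Dnajb4-/- livers and 2008 to 2117 in Dnajb4+/+ livers. Of 18 skeletal muscle markers, 13 passed as lower, with summed levels of 535.4 to 550.5 in Dnajb4-/- livers and 997 to 1064 in Dnajb4+/+ livers, although Casq1, Myh2, Myh4 and Ryr1 averaged under 16. In RNA of whole tissue, fewer cells of a type and less RNA per cell cannot be told apart. The 10 measured hepatocyte markers had sums of 172400 to 173900 in Dnajb4-/- livers and 175700 to 176500 in Dnajb4+/+ livers. The Gapdh control signal at the 3' end over that at the 5' end, a sign of RNA integrity, was 1.43 to 1.48 in Dnajb4-/- livers and 1.16 to 1.19 in Dnajb4+/+ livers. The part of these differences in the results was not tested, and because they followed genotype in all 6 arrays, they and the deletion cannot be told apart.

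No mitochondrial ribosomal protein gene passed the test as higher in Dnajb4-/- livers, 7 passed as lower and 69 did not pass. The 7 were Mrpl12, Mrpl14, Mrpl15 and Mrpl18 of the large subunit and Mrps21, Mrps28 and Mrps35 of the small subunit, with log2 differences (Dnajb4-/- minus Dnajb4+/+) of -0.24 to -0.16. The test was limma on log2 values averaged per gene, and a gene passed when its p, adjusted for all genes measured, was below 0.05. The 7 genes were 9.21% of the members. Over all genes 9.57% passed as lower, 5.09% as higher and 14.7% in either direction. Of the 3327 genes whose mean signal lay within the members' interquartile range, 20.7% passed as lower, 8.84% as higher and 29.5% in either direction. At an unadjusted p under 0.05, 2 members were higher and 16 lower (23.7% in all), compared with 12.9% higher and 16.6% lower over all genes, and with 48.3% in all for the genes of like signal. The methods' t-test found 0 members higher and 8 lower (over all genes 3.82% and 7.38%). Limma with a variance trend found 2 higher and 15 lower (over all genes 6.98% and 12.4%). Over all genes 926 passed as higher and 1741 as lower (34.7% of those that passed were higher). With the arrays centred on brighter probe sets instead, 1526 passed as higher and 1399 as lower (52.2% higher), and the members gave 1 higher and 4 lower.

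With probe sets averaged per gene, the differences were small for every member. None of the 76 genes was beyond 0.25 on the log2 scale in either direction, whereas 10.1% of all genes were, and 16.3% of the genes of like signal. Single probe sets went further, from -0.53 for 1 of Mrpl15 to 0.29 for 1 of Mrpl13. The brightest probe sets of Mrpl50 and Mrpl48 differed by -0.29 and -0.28. Averaged per gene, the log2 differences of the members ran from -0.24 for Mrpl15 to 0.15 for Mrpl22, with 46 below and 30 above 0. Their median was -0.02, against 0.01 over all genes; with the arrays centred on brighter probe sets the members' median turned positive (0.01, against 0.04 over all genes). The median size of the difference regardless of sign was 0.06 for the members, 0.08 for all genes and 0.11 for the genes of like signal. For 66 of the 76 genes the 95% interval of the difference lay within 0.25 of 0 on both sides. The values of the genotypes did not overlap for 32 members (42.1%, of which 21 were below and 11 above), compared with 35.5% of all genes and 58.3% of the genes of like signal.

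**Figure D1:**
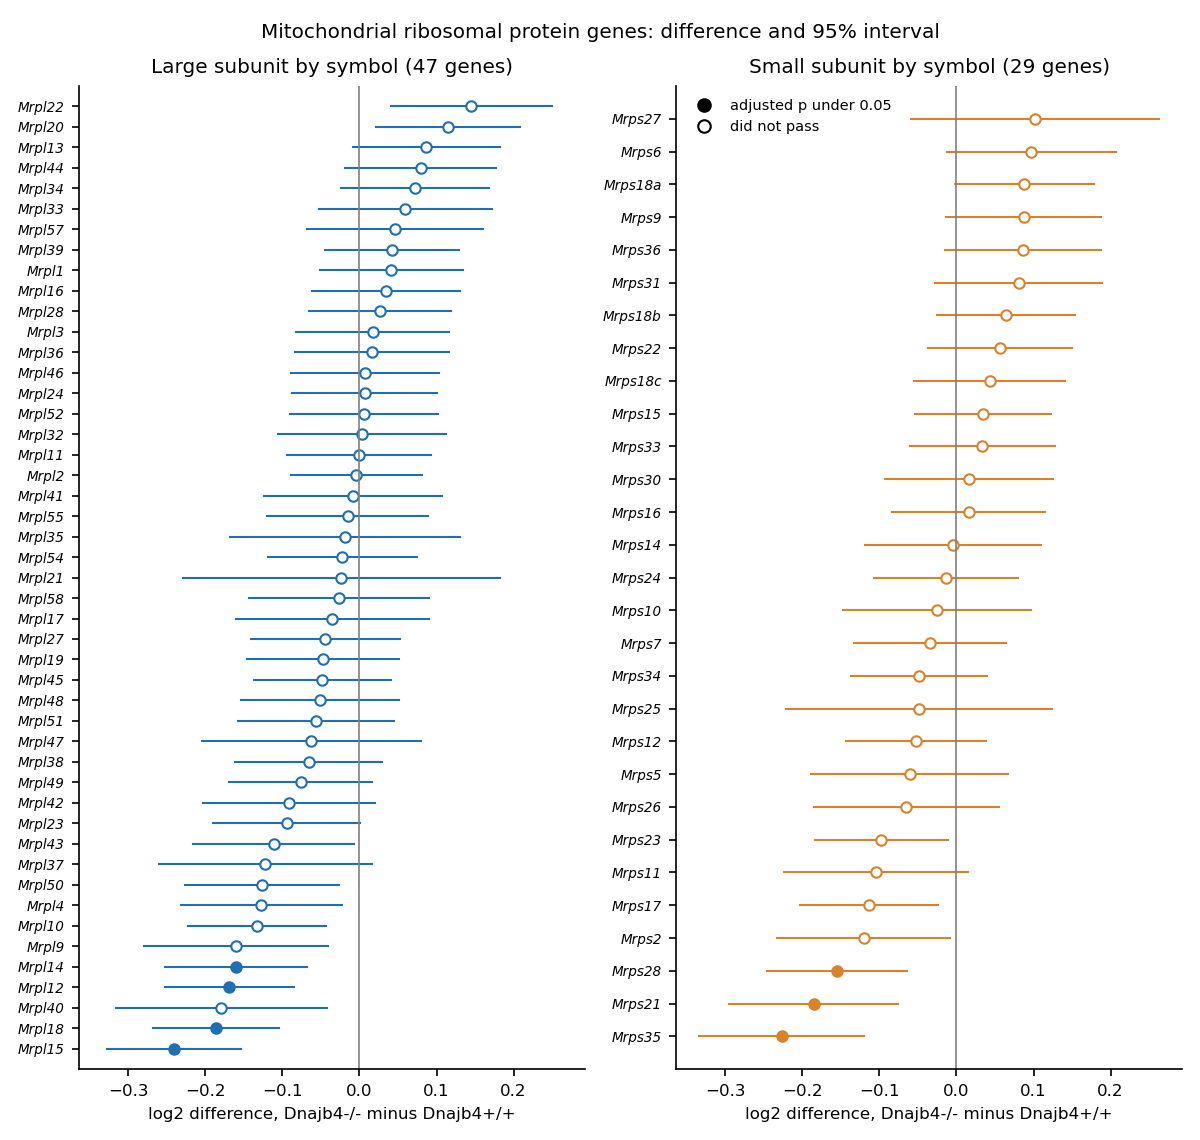
Log2 difference (Dnajb4-/- minus Dnajb4+/+, horizontal axis) of each of the 47 Mrpl genes (left) and 29 Mrps genes (right), sorted, with the 95% interval from limma as a line. Filled points mark the 7 genes that passed the test, all of them on the left of 0, and the intervals of most genes cross 0.

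Mrpl15, a large subunit protein with a bacterial counterpart, had the largest difference. Its normalized intensity, averaged over 8 probe sets, was 175, 179 and 180 in Dnajb4-/- livers and 207, 211 and 213 in Dnajb4+/+ livers. All Dnajb4-/- arrays were below all Dnajb4+/+ arrays, with means of 178 ± 2.83 and, in Dnajb4+/+ livers, 210 ± 3.15 (SD, n = 3 each). The log2 difference was -0.24 with a standard error of 0.04 (limma, adjusted p = 0.00637). Tested singly, the brightest of the 8 probe sets differed by -0.10 and did not pass (limma, adjusted p = 0.213). Mrpl18 encodes the protein of the central protuberance that corresponds to the bacterial protein binding 5S ribosomal RNA, and in human cells a shorter form has been described on cytosolic ribosomes during heat stress. Mrpl18 read 658, 658 and 660 in Dnajb4-/- livers and 748, 744 and 757 in Dnajb4+/+ livers, which gave -0.19 on the log2 scale with a standard error of 0.03 (adjusted p = 0.0138). The genotypes were far apart compared with the spread within each.

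Mrpl12 forms the flexible stalk to which translation factors bind, and in human cells the protein also binds the mitochondrial RNA polymerase. Its intensity was 2207, 2224 and 2216 in Dnajb4-/- livers and 2524, 2451 and 2495 in Dnajb4+/+ livers, without overlap (log2 difference -0.17, standard error 0.04, adjusted p = 0.0220). Mrpl10 and Mrpl11, which hold the stalk to the ribosome, did not pass. Mrpl10 read 548, 571 and 567 in Dnajb4-/- livers and 621, 605 and 621 in Dnajb4+/+ livers (-0.13, adjusted p = 0.0612), also without overlap. Mrpl11 averaged 185 in both genotypes. The proteins of the stalk and its base, Mrpl54 included, thus gave 1 gene that passed of 4 (25%). Over all genes 9.57% passed as lower, and 4 genes are too few to compare the shares. Mrpl14 lies at the face of the large subunit that meets the small one, where an assembly factor keeps the subunits apart until the large one is complete. Mrpl14 read 678, 702 and 711 in Dnajb4-/- livers and 764, 781 and 792 in Dnajb4+/+ livers (-0.16, standard error 0.04, adjusted p = 0.0367). Each of these arrays with the deletion was lower than each without it.

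Of the small subunit, Mrps35 is a protein specific to mitochondria. It read 536, 532 and 508 in Dnajb4-/- livers and 613, 593 and 639 in Dnajb4+/+ livers (log2 difference -0.23, standard error 0.05, adjusted p = 0.0180). Mrps28, which has a bacterial counterpart, read 745, 749 and 770 in Dnajb4-/- livers and 856, 846 and 820 in Dnajb4+/+ livers (-0.16, standard error 0.04, adjusted p = 0.0389). In both genes the genotypes stood apart. Mrps21, the counterpart of bacterial S21, read 131, 130 and 124 in Dnajb4-/- livers and 142, 143 and 153 in Dnajb4+/+ livers (-0.19, standard error 0.05, adjusted p = 0.0405). This mean joined a bright probe set at 603 ± 1.83 in Dnajb4-/- livers and 628 ± 16.1 in Dnajb4+/+ livers, which did not pass (-0.06, adjusted p = 0.428), with a dim one at 27.3 ± 1.65 and, in Dnajb4+/+ livers, 33.9 ± 2.09, which passed (-0.31, adjusted p = 0.0281; SD, n = 3 each). The call of Mrps21 thus came with the dim probe set.

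**Figure D2:**
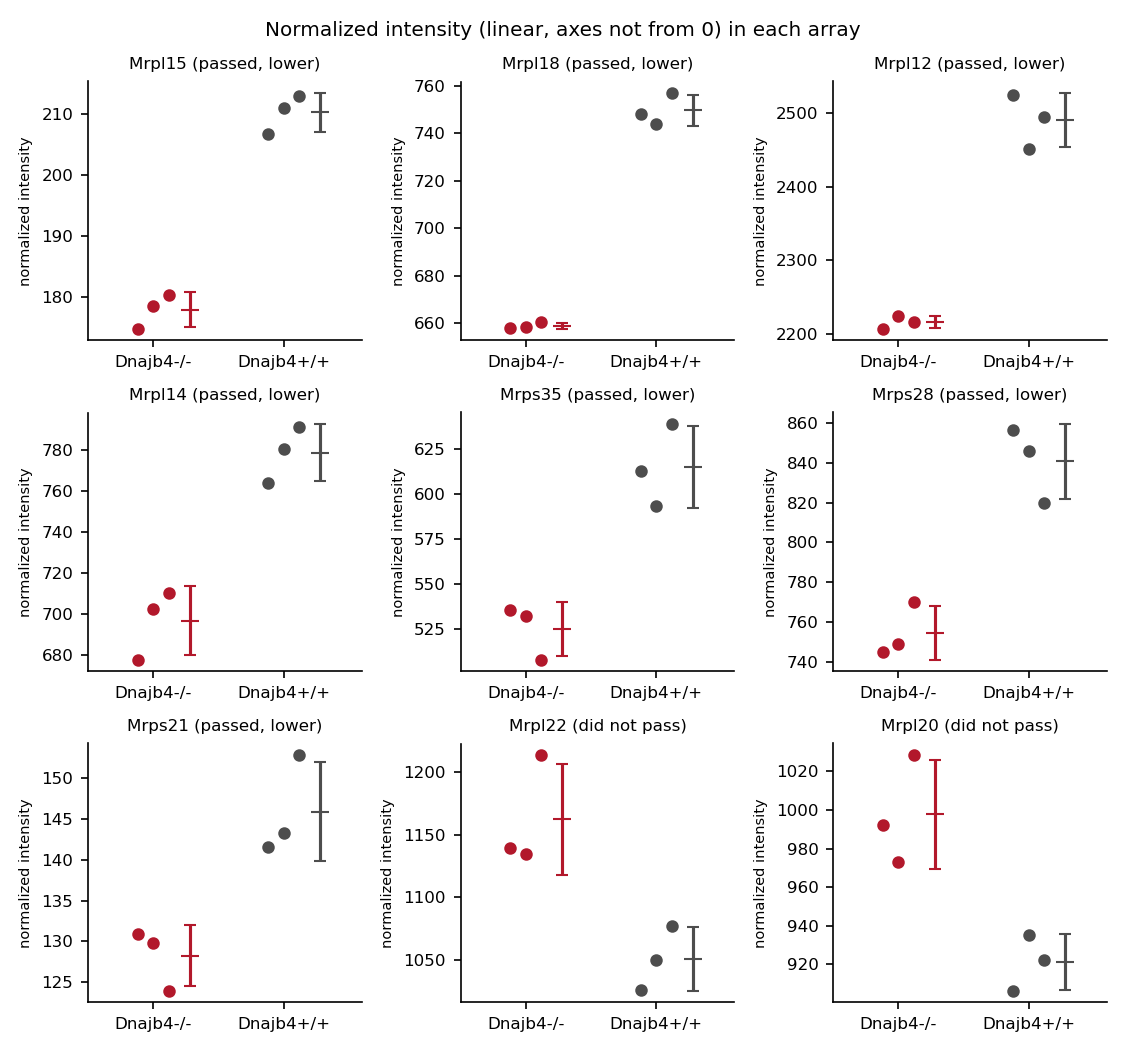
Normalized intensity in each array (points; vertical axes differ and do not start at 0) with the mean and SD beside them, for the 7 genes that passed and for Mrpl22 and Mrpl20, which did not, with Dnajb4-/- on the left of each panel. In the 7 genes all Dnajb4-/- points lie below all Dnajb4+/+ points, and in Mrpl22 and Mrpl20 all lie above.

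With an array left out, most of the calls did not hold, except without Dnajb4+/+ replicate 2, where 4 of the 7 held. The differences of the 7 genes kept their direction in every such fit. The log2 difference ran from -0.175 to -0.141 for Mrpl14, from -0.206 to -0.151 for Mrps21 and from -0.173 to -0.142 for Mrps28. When each array was left out in turn, Mrpl15 passed in 6 of 6 fits, Mrpl18 in 4, Mrps35 in 2, Mrpl12 in 1, and Mrpl14, Mrps21 and Mrps28 in 0. The number of members that passed as lower was 3 without Dnajb4-/- replicate 1, 2 without replicate 2 and 2 without replicate 3. It was 1 without Dnajb4+/+ replicate 1, 4 without replicate 2 and 1 without replicate 3. The calls over all genes fell in number too, to between 1036 and 1352 lower.

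The largest difference above 0 belonged to Mrpl22, a protein that lines the tunnel through which the new chain leaves. It read 1139, 1135 and 1214 in Dnajb4-/- livers and 1026, 1050 and 1077 in Dnajb4+/+ livers (0.15, standard error 0.04, adjusted p = 0.0737). Mrpl20 read 992, 973 and 1028 in Dnajb4-/- livers and 906, 935 and 922 in Dnajb4+/+ livers (0.11, adjusted p = 0.104). Neither passed, although the genotypes did not overlap in either gene. Among the alternative settings given at the end, Mrpl22 passed as higher in 5 and did not pass in 11. It passed with quantile normalization (limma, adjusted p = 0.0427) and with the arrays centred on brighter probe sets (limma, adjusted p = 0.0342). Mrpl20 passed as higher in 3 and did not pass in 12. Of the 9 proteins around the tunnel exit, which include Mrpl45, the protein that faces the inner membrane, none passed (1 higher and 1 lower at an unadjusted p under 0.05). Of the 9 proteins of the central protuberance, Mrpl18 passed. Mrpl40 differed by -0.18 without passing (limma, adjusted p = 0.0864), with 396, 428 and 437 in Dnajb4-/- livers and 481, 448 and 499 in Dnajb4+/+ livers. With the brightest probe set of each gene, Mrpl27, Mrpl38, Mrpl48 and Mrpl58 of the protuberance also passed as lower. Around the tunnel exit, Mrpl17, Mrpl47 and Mrpl50 then passed as lower and Mrpl44 as higher. Over all genes 14.7% passed in the main fit and 17.8% with the brightest probe sets.

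The 2 members of each subunit with the highest mean signal, which on arrays is no measure of abundance between genes, were Mrpl12 and Mrpl39, and Mrps18c and Mrps24. Mrpl39, a protein near the tunnel exit, averaged 1736 ± 28.1 in Dnajb4-/- livers and 1686 ± 25.4 in Dnajb4+/+ livers (SD, n = 3 each, log2 difference 0.04, 95% interval -0.04 to 0.13). Mrps18c averaged 1600.1 ± 26.1 in Dnajb4-/- livers and 1553 ± 52.3 in Dnajb4+/+ livers (0.04, interval -0.05 to 0.14). Mrps24 averaged 1464 ± 12.3 in Dnajb4-/- livers and 1478 ± 45.5 in Dnajb4+/+ livers (-0.01, interval -0.11 to 0.08). For these 3 genes the interval held no difference beyond 0.15 in either direction. Mrps12, a protein of the decoding centre, averaged 776 ± 1.15 in Dnajb4-/- livers and 805 ± 22.4 in Dnajb4+/+ livers (-0.05, adjusted p = 0.412) and did not pass.

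Symbols and structure disagree for a few members. Mrps18a and Mrps30 carry the symbol of the small subunit, but their proteins sit in the large one. Mrps36 is now regarded as a subunit of the 2-oxoglutarate dehydrogenase complex of the citric acid cycle rather than of the ribosome. Mrps18a averaged 545 ± 9.72 in Dnajb4-/- livers and 512 ± 10.9 in Dnajb4+/+ livers (log2 difference 0.09, adjusted p = 0.178). Mrps30 averaged 542 ± 18.6 in Dnajb4-/- livers and 536 ± 18.8 in Dnajb4+/+ livers (0.02, adjusted p = 0.851). Mrps36 averaged 578 ± 7.34 in Dnajb4-/- livers and 545 ± 21.0 in Dnajb4+/+ livers (0.09, adjusted p = 0.233; SD, n = 3 for each group). None of the 3 passed, and only in Mrps30 did the genotypes overlap. Mrps18b, a paralog of Mrps18a that does belong to the small subunit, differed by 0.06 (adjusted p = 0.310).

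The medians of the large and the small subunit lay close together when probe sets were averaged, and their difference was not tested. Of 47 Mrpl genes 4 passed as lower (8.51%), with a median log2 difference of -0.02, and of 29 Mrps genes 3 passed as lower (10.3%), with a median of -0.01. The large minus the small subunit, as the difference of these medians, was -0.01. Array by array, the median of the large subunit minus that of the small one, each gene centred on its mean over the 6 arrays, was -0.01, -0.01 and -0.02 in Dnajb4-/- livers and 0.03, 0.00 and -0.01 in Dnajb4+/+ livers. The ranges of the genotypes overlapped, and the SDs within each genotype averaged 0.01. Without Dnajb4-/- replicate 1 the difference of the medians was -0.04. It was -0.05 when probe sets were averaged as linear intensities, and -0.04 with the brightest probe set of each gene, where the median was -0.03 for the large and 0.01 for the small subunit. With Mrps18a and Mrps30 counted with the large subunit and Mrps36 left out, the large subunit had 49 genes and a median of -0.02, the small one 26 genes and a median of -0.03, and the difference was 0.01. Among the 45 members with a bacterial counterpart 6 passed as lower, and among the 30 found only in mitochondrial ribosomes 1 passed, Mrps35. These shares were 13.3% and 3.33%, on either side of the 9.57% over all genes, and their difference was not tested. The median log2 difference was -0.02 for the former and -0.04 for the latter. With the brightest probe set of each gene, Mrpl38, Mrpl48, Mrpl50 and Mrpl58 of the latter also passed as lower. Of the former, Mrpl17, Mrpl27 and Mrpl47 then passed as lower too, and Mrpl15 and Mrps21 no longer did.

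**Figure D3:**
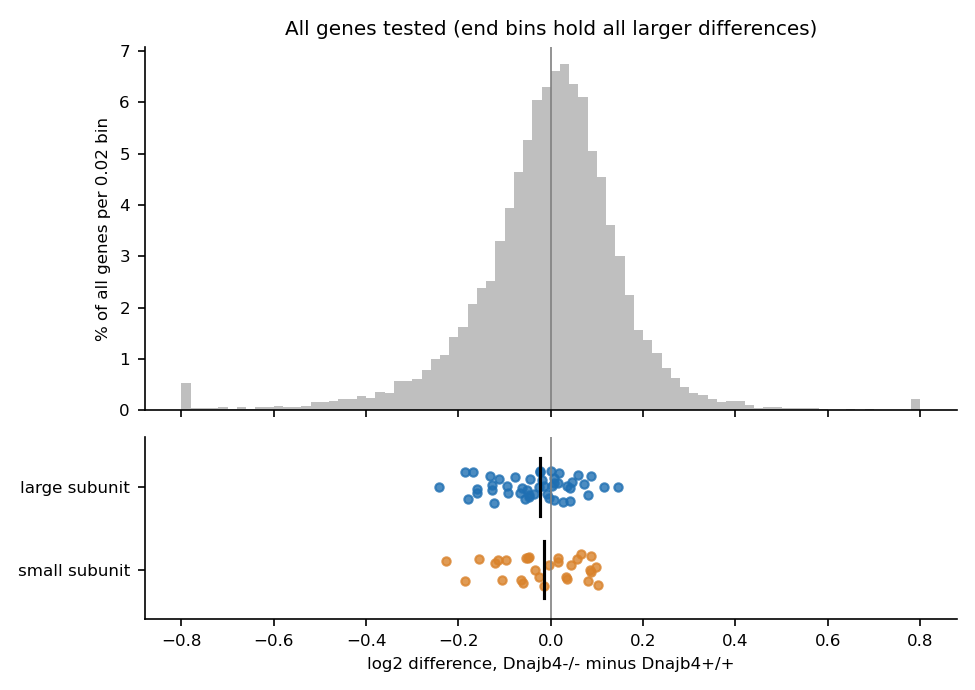
Top, share of all 18193 genes by log2 difference (Dnajb4-/- minus Dnajb4+/+) in bins of 0.02. Bottom, the same difference for each large and small subunit gene (points, with random vertical spread) with the median as a black line; both subunits lie near 0, inside the body of all genes.

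Single arrays moved the members together by small amounts. The median of the members, each centred on its own mean over the 6 arrays, was -0.02, 0.00 and 0.00 in Dnajb4-/- livers and 0.00, 0.00 and 0.03 in Dnajb4+/+ livers. Dnajb4-/- replicate 1 held the lowest value of 27 members and the highest of 1, whereas Dnajb4+/+ replicate 3 held the highest value of 33 and the lowest of 6. The same median over all genes stayed within 0.01 of 0 in every array.

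Because 42 of the 76 genes were read by more than 1 probe set, the probe sets were also tested singly. Of 156 probe sets 4 passed as higher (2.56%, compared with 5.2% of all probe sets) and 17 as lower (10.9%, compared with 8.34%). No gene had probe sets that passed in opposite directions. Among the 29 probe sets with a mean below 32, close to the array medians of 31.8 to 32.5, 1 passed, the dim probe set of Mrps21. Mrpl15 had 8 probe sets with log2 differences of -0.53 to -0.03, of which 3 passed, all lower. Its brightest one averaged 1247 ± 37.1 in Dnajb4-/- livers and 1338 ± 37.2 in Dnajb4+/+ livers and did not pass (-0.10, adjusted p = 0.213). The 3 that passed averaged 783, 92.9 and 48.9 in Dnajb4-/- livers and 954, 131 and 70.8 in Dnajb4+/+ livers. All 8 had negative differences. Mrpl14 and Mrps28, with 1 probe set each, passed over genes but not over single probe sets (adjusted p = 0.0578 and 0.0617).

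The brightest probe set of a gene could differ where the mean of its probe sets did not. When only the brightest one was used, 12 members passed as lower (over all genes 11.3% did) and 1 as higher (over all genes 6.53%). These were 10 of 47 large and 2 of 29 small subunit genes, a difference that was not tested. Mrpl17, a protein near the tunnel exit, had a brightest probe set at 1254, 1251 and 1242 in Dnajb4-/- livers and 1475, 1442 and 1490 in Dnajb4+/+ livers (-0.23), and 2 further probe sets below 32 with differences of 0.03 and 0.10. Mrpl50 had its brightest probe set at 645, 665 and 636 in Dnajb4-/- livers and 806, 795 and 773 in Dnajb4+/+ livers (-0.29), and another at 249 in Dnajb4-/- livers and 243 in Dnajb4+/+ livers. In both genes the bright probe sets stood apart by genotype and the others did not. Mrpl48 (-0.28), Mrpl27 (-0.19), Mrpl38, Mrpl47 and Mrpl58 likewise passed with the brightest probe set alone, whereas Mrpl15 and Mrps21 no longer did. These genes were named after their values were seen.

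Probe sets that passed as higher belonged to Mrpl13, Mrpl44 and Mrpl1. Mrpl44, a protein with a fold like that of ribonuclease III, had its brightest probe set at 787, 799 and 795 in Dnajb4-/- livers and 689, 683 and 687 in Dnajb4+/+ livers (0.21, adjusted p = 0.0185). That probe set is of a type that can match several transcripts. The other probe sets of Mrpl44 differed by 0.225, 0.01 and -0.13, and none of them passed. Averaged per gene, Mrpl44 differed by 0.08 and did not pass (adjusted p = 0.2554). Mrpl13 had 2 probe sets that passed, at 910 and 171 in Dnajb4-/- livers and 743 and 142 in Dnajb4+/+ livers (0.29 and 0.27). Both are of types that can match several transcripts, and the brightest probe set of Mrpl13 averaged 1375 in Dnajb4-/- livers and 1372 in Dnajb4+/+ livers. The probe sets of Mrpl13 thus disagreed.

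**Figure D4:**
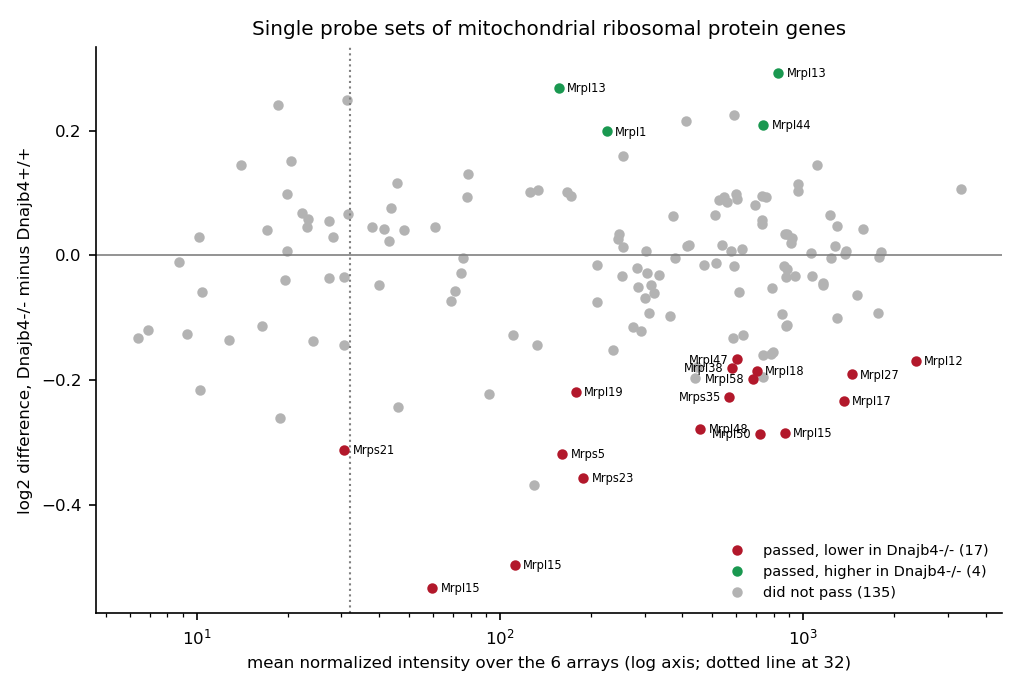
Log2 difference (vertical axis, Dnajb4-/- minus Dnajb4+/+) of each of the 156 probe sets against its mean normalized intensity over the 6 arrays (horizontal log axis). Red points passed as lower (17) and green points as higher (4), with gene names, and most of the points that passed lie well to the right of the dotted line at 32.

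The promoters of the members were searched for short motifs, which the choice of genes did not use. Windows of 300 bases, 250 before and 50 after the start of a gene, were taken from RefSeq (GRCm38.p6) for 67 of the 76 members, and searched on both strands for 4 short motifs. The core bound by ETS factors such as GABP, CCGGAAG, was in windows of 37.3% of the members and 15.0% of 14369 genes. The core of NRF1, a regulator of nuclear genes for mitochondria, GCGCANGCG, was in 22.4% of the members and 11.5% of the genes. The core of YY1, AAGATGGC, was in 17.9% and, over all genes, 4.09%, and the E-box CACGTG in 7.46% and, over all genes, 10.3%. The first 3 motifs were thus more frequent in the members than over all genes and the E-box less frequent, and no test was made. These counts describe letters in a window and not binding. Of the 7 genes that passed, Mrpl12, Mrpl14, Mrpl18 and Mrps21 had a window, with the NRF1 core in 3 and the ETS core in 2.

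The 180 bases before the start are shown for 3 of these genes and for Mrpl22, the member with the largest difference above 0, so that genes on either side of 0 can be compared. They are Mrpl12 at chr11:120484457-120484636 (plus strand), Mrps21 at chr3:95871515-95871694 (minus strand), Mrpl18 at chr17:12916092-12916271 (minus strand) and Mrpl22 at chr11:58171484-58171663 (plus strand), each written 5′ to 3′ along the strand of the gene, with motifs in capitals.
Mrpl12: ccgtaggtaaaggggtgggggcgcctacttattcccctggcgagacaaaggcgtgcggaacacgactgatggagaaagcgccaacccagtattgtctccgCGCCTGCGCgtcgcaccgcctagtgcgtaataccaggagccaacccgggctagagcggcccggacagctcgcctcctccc
Mrps21: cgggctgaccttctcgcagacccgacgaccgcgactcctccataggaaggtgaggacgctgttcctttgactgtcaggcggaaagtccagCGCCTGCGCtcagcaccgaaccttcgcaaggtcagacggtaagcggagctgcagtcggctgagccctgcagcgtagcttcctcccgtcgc
Mrpl18: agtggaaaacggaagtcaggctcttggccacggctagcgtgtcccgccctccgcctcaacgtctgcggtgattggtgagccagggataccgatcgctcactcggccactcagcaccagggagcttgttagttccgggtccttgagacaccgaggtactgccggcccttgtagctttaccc
Mrpl22: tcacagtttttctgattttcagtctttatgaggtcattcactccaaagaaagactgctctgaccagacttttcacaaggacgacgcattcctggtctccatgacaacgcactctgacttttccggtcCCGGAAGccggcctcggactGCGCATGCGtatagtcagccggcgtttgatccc
The NRF1 core began 80 bases before the start of Mrpl12 and 90 bases before that of Mrps21, both times read on the opposite strand. Mrpl22, which differed by 0.15 against their -0.17 and -0.19, held the NRF1 core 33 bases and the ETS core 53 bases before its start. The stretch of Mrpl18 shown held none of the 4 motifs, and its ETS core lay 240 bases before the start.

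A start on the opposite strand within 1000 bases upstream was found for 25 of the 67 members (37.3%), compared with 16.2% of all genes. Several such neighbours also serve mitochondria. Mrpl46 and Mrps11, of the large and the small subunit, start 42 bases apart; Mrpl46 differed by 0.01 and Mrps11 by -0.10, and neither passed. Mrpl43 lies beside Twnk, the mitochondrial DNA helicase, Mrps12 beside Sars2, a mitochondrial seryl-tRNA synthetase, and Mrpl47 beside Ndufb5 of complex I, and none of these genes passed. Mrpl18 starts 238 bases from Tcp1, a subunit of the cytosolic chaperonin. Tcp1 averaged 1495 ± 32.1 in Dnajb4-/- livers and 1433 ± 32.1 in Dnajb4+/+ livers (SD, n = 3 each, 0.06, adjusted p = 0.361), so the pair held a gene that fell beside one that did not pass. Of the 25 neighbours 2 passed as higher and 2 as lower, where over all genes 5.09% passed as higher and 9.57% as lower.

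The other genes of mitochondrial translation were grouped by role, and the shares that passed were 0% of 4 ribosomal proteins under other symbols, 3.85% of assembly factors, 16.7% of translation factors and 21.1% of aminoacyl-tRNA synthetases, compared with 14.7% of all genes. Dap3, Chchd1, Gadd45gip1 and Ptcd3, mitochondrial ribosomal proteins under other symbols, did not pass. Dap3, a small subunit protein, had the lowest values relative to Dnajb4+/+ of these, at 643, 664 and 657 in Dnajb4-/- livers and 696, 696 and 717 in Dnajb4+/+ livers (-0.10, adjusted p = 0.118). Of 26 assembly factors 1 passed, Mpv17l2, which takes part in building the large subunit, at 253 ± 10.04 in Dnajb4-/- livers and 315 ± 8.51 in Dnajb4+/+ livers (SD, n = 3 each, -0.31, adjusted p = 0.00512). Of 12 translation factors Mtif2, the initiation factor that brings the first transfer RNA, rose by 0.16 (adjusted p = 0.0368). Mtfmt, which formylates that transfer RNA, fell by 0.26 (adjusted p = 0.0150).

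Of 19 mitochondrial aminoacyl-tRNA synthetases, which charge transfer RNAs for this ribosome, 4 passed as higher and 0 as lower (4 and 1 at an unadjusted p under 0.05). Yars2 had the largest difference, with 230.0, 246 and 237 in Dnajb4-/- livers and 207, 182 and 199 in Dnajb4+/+ livers (0.28, standard error 0.06, adjusted p = 0.0208). Lars2 (0.24), Ears2 (0.22) and Nars2 (0.15) followed, and the median of the 19 was 0.02. Over all genes 5.09% passed as higher, and whether the synthetases differed from the ribosomal proteins was not tested.

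Of 21 genes for transcription and upkeep of mitochondrial DNA, 2 passed as lower, Mterf2 (-0.45, adjusted p = 0.0216) and Polg2, an accessory subunit of the mitochondrial DNA polymerase (-0.37, adjusted p = 0.00294). That was 9.52% of them, close to the 9.57% of all genes that passed as lower. Larger differences were seen in 10 regulators of nuclear genes for mitochondria, of which 1 passed as higher and 3 as lower. In either direction this was 40% of these regulators, compared with 14.7% of all genes. Ppargc1a, a coactivator that drives the formation of mitochondria, read 70.2, 76.0 and 75.6 in Dnajb4-/- livers and 124, 117 and 131 in Dnajb4+/+ livers (-0.74, adjusted p = 0.000357). Myc, a transcription factor of growth genes, read 254, 248 and 260.1 in Dnajb4-/- livers and 159, 154 and 138 in Dnajb4+/+ livers (0.76, adjusted p = 0.000445). In neither gene did the genotypes overlap, and both differences were larger in size than that of any member. Nr1d1, also a clock gene, fell by 0.37 (adjusted p = 0.00156), and Ppargc1b fell by 0.17 (adjusted p = 0.0384).

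The partners of the ribosome's products were near 0 on balance too. Nuclear genes of the respiratory chain and ATP synthase were taken by symbol, 90 in all. Of these 5 passed as higher and 5 as lower, with a median log2 difference of 0.01. The symbols also took in assembly factors of complex I, of which Ndufaf4 passed as lower (-0.19, adjusted p = 0.0444). Ndufb4 and Cox6a2 passed at low mean intensities, 12.7 and 27.3 in Dnajb4-/- livers and 10.6 and 32.4 in Dnajb4+/+ livers. Uqcr10 of complex III fell most, at 660 ± 29.3 in Dnajb4-/- livers and 1013 ± 72.4 in Dnajb4+/+ livers (SD, n = 3 each, -0.62, adjusted p = 0.00115), and Cox6b2 of complex IV was higher by 0.38 (adjusted p = 0.00728). Genes of cytosolic ribosomal proteins were likewise taken by symbol, 50 in all. Of these 0 passed as higher and 6 as lower (2 and 7 at an unadjusted p under 0.05), with a median of -0.01. The symbols also took in Rps19bp1, which is no ribosomal protein, the pseudogene Rps15a-ps6 and paralogs such as Rps4l. Rps9 and Rps4l each fell by 0.41 (adjusted p = 0.00341 and 0.00103). The shares that passed were 9.21% of the mitochondrial ribosomal proteins, 11.1% of the respiratory chain list and 12% of the cytosolic ribosomal list. All were below the 14.7% of all genes and the 29.5% of genes with a mean signal like that of the mitochondrial ribosomal proteins. Many genes of the respiratory chain and cytosolic ribosomal lists were brighter than that, so 29.5% is not a share at like signal for those lists.

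**Figure D5:**
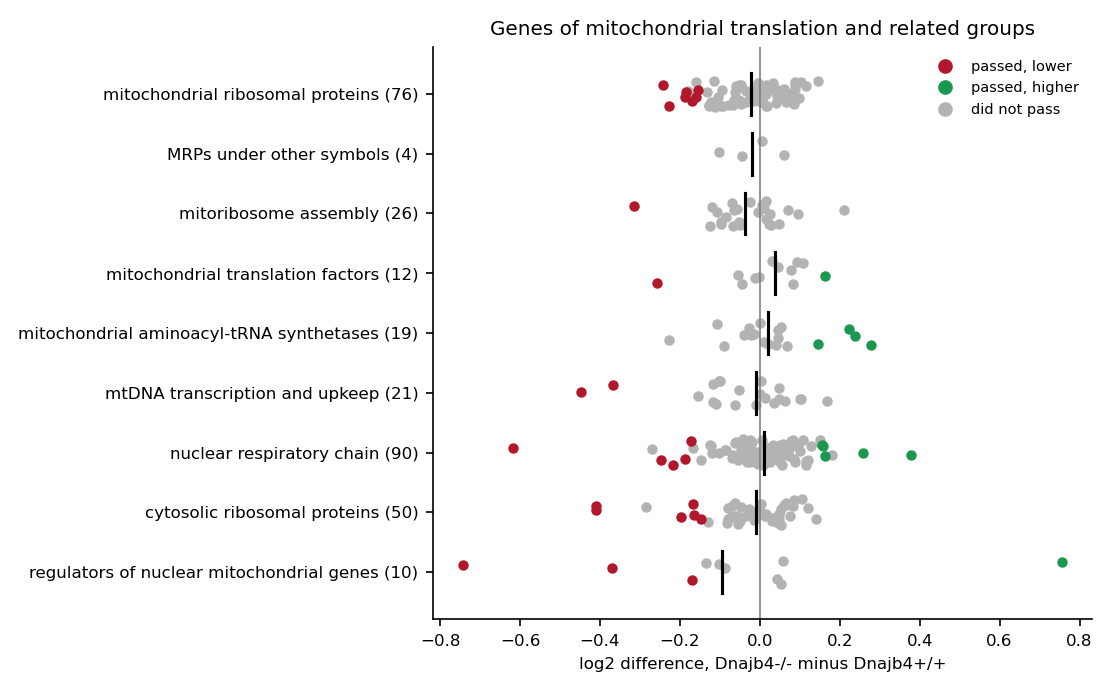
Log2 difference (horizontal axis, Dnajb4-/- minus Dnajb4+/+) of each gene of mitochondrial translation and related groups (points, with random vertical spread; number of genes in brackets), with the median of each group as a black line. The 76 mitochondrial ribosomal proteins span -0.24 to 0.15, whereas single regulators such as Ppargc1a and Myc lie at -0.74 and 0.76.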

How the data were processed

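Liver RNA of 3 Dnajb4-/- and 3 Dnajb4+/+ mice was hybridised to an Affymetrix mouse expression array, 1 array per labelled mouse. The authors processed the arrays with GCRMA and global median centring in GeneSpring, and deposited intensities are linear and start at 3.90. No detection call was used. Of 45101 probe sets, 932 with several symbols, 9211 without a symbol and all 64 controls, most of them among those without a symbol, were left out, and 34945 were tested. Mrpl30 and Mrpl53, present only in probe sets with several symbols, were not analysed here. Values were converted to log2 and averaged per gene, and an average of bright and dim probe sets weighs them equally. Genotypes were compared with limma 3.58.1 in R 4.3.3 (two-sided, Benjamini-Hochberg over 18193 genes). Standard errors and 95% intervals came from the same fit.

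Named are the members that passed, the 2 brightest of each subunit, those whose symbol and structure disagree, those with opposing probe sets, and up to 3 genes per related list; further genes were named after their values were seen. Subunit, ancestry and site were assigned from general knowledge of ribosome structure. The members and lists were chosen with earlier results of these data known. Alternatives covered scaling, filter, probe sets, offset, variance model, test, replicate block and left-out arrays. The procedure was tested on simulated data. The number of arrays limits the precision. Figures were drawn with matplotlib 3.10.9.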

Additional observations from a re-analysis of the deposited data

How the results depend on the processing

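The count of members that passed as lower (7) became 6 with quantile normalization, 4 with centring on brighter probe sets, 14 with only genes above the median signal, 12 with the brightest probe set of each gene, 4 without probe sets of types that can match several transcripts (62 members measured), 15 with linear averaging of probe sets, 14 with 16 added to each value, 15 with a variance trend and robust fit, and 8 with the methods' t-test. Over all genes the share that passed as lower (9.57%) was 8.87%, 7.69%, 23.4%, 11.3%, 7.76%, 12%, 12.7%, 12.4% and 7.38% in that order. The count of members that passed as higher (0) became 2, 1, 2, 1, 0, 1, 3, 2 and 0 in the same order. Leaving out each array gave 1 to 4 lower and 0 to 0 higher. With a replicate block 1 passed as lower, Mrpl15, and 0 as higher (over all genes 505 higher and 1024 lower). Deviations of arrays with the same number correlated at -0.02, -0.14 and 0.01. These correlations cannot show whether the numbers pair the arrays, because the deviations within each genotype sum to 0. The main fit assumed no pairing. The large minus the small subunit (-0.00955) was -0.0404 with the brightest probe sets, -0.0544 with linear averaging, -0.0224 with 16 added and 0.00724 with subunits by structure, and -0.0405 to -0.00353 with each array left out. Mrpl15 passed under all alternatives except the brightest probe set. Mrpl17 changed sign with centring on brighter probe sets (0.00163) and without probe sets that can match several transcripts (0.0639). Mrps30 changed sign without Dnajb4-/- replicate 3 and without Dnajb4+/+ replicate 2, with values of -0.00579 to 0.0444 over the left-out arrays. The cause of these changes was not tested. Dim probe sets and 3 arrays a genotype limit what can be called.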
